A study of Mus musculus with 28 samples.

Results

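Narrow shared Ty1 peaks at gene ends are regions of chromatin bound by Ty1-tagged MOZ-TIF2 in mouse cells. They were chosen as peaks of ChIP replicate 1 that overlapped a peak of ChIP replicate 2 by at least 1 bp, were under 1500 bp wide, and lay within 1 kb of a start or end of a RefSeq gene on GRCm38. The rule was met by 2496 of 3676 replicate 1 peaks (67.9%), and replicate 2 had 4564 peaks in all. Of the other replicate 1 peaks, 447 were shared and wide, 360 were shared and narrow but away from gene ends, and 373 were in replicate 1 alone. The 2496 peaks were linked to 3375 genes, of which 2847 code for proteins and 389 are long non-coding RNAs. Of these genes, 2814 were in the bulk RNA table and 2766 passed the filter on low counts, 48 did not, and 9 of those 48 had no count in any library.

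MOZ-TIF2 joins MOZ (KAT6A), a histone acetyltransferase, to TIF2 (NCOA2), a transcriptional coactivator that recruits the acetyltransferases CBP and p300. The fusion is an oncoprotein of acute myeloid leukaemia and lets committed myeloid progenitors renew themselves. MOZ works in a complex with BRPF, ING5 and MEAF6 subunits and is found at active promoters, many of which are CpG islands.

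The ChIP cells were c-Kit+ stem and progenitor cells from C57Bl/6 bone marrow that carried a retroviral Ty1.MOZ-TIF2, were sorted on GFP and were replated serially in methylcellulose. The RNA groups were Ty1.MOZ-TIF2 cells GFP+-sorted, then held in medium with cytokines for 4 days (MOZ-TIF2, n = 2), empty-vector c-Kit+ cells treated alike (differentiated, n = 2), and untransduced c-Kit+ cells as isolated (fresh, n = 2). The MOZ-TIF2 RNA thus came from a culture unlike that of the ChIP cells. Library totals were 34463851 and 33010700 estimated counts for MOZ-TIF2, 23656631 and 34260108 for differentiated and 12397486 and 15550960 for fresh cells.

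Several features of the samples bear on the values that follow. The antibody catalogue number given for ChIP replicate 2 is the one given for the samples of acetylated histone H3 (H3K9/14ac), whereas replicate 1 carries another number, so which antibody made the replicate 2 list is unsure. Without the condition on replicate 2 the rule gave 2812 peaks and 3796 genes, and starting from replicate 2 it gave 2250 peaks and 3019 genes. Mast cell markers (9 genes, all measured) summed to 54.8 and 39.3 CPM in MOZ-TIF2, 51224 and 71582 CPM in differentiated and 334 and 365 CPM in fresh cells. Erythroid markers (8 genes) summed to 4.51 and 4.93 CPM in MOZ-TIF2, with 6 and 5 of them at 0, 59.4 and 71.9 CPM in differentiated and 5251 and 4552 CPM in fresh cells, and B cell markers (7 genes) to 5.46 and 5.22 CPM in MOZ-TIF2, 0.43 and 1.18 CPM in differentiated and 651 and 585 CPM in fresh cells. The Y-linked genes Ddx3y and Eif2s3y were at 0 in all 4 cultured libraries, and fresh replicates 1 and 2 held 24.3 and 2.21 CPM of Ddx3y. Other Y-linked genes were not at 0 in cultured cells. Kdm5d had 2.40 and 3.38 CPM in MOZ-TIF2, 3.82 and 4.36 CPM in differentiated and 15.8 and 5.70 CPM in fresh cells. Uty had 0.173 to 0.467 CPM in the cultured libraries. The part of these differences in the gene results below was not tested, and in bulk RNA fewer cells of a type and less RNA per cell cannot be told apart.

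Promoters of 4 linked genes are shown, because the peaks lie at or just downstream of gene starts and these promoters hold several of the motifs compared below. These genes are the ones, among those named below, whose promoters held the most different motifs, so they are not typical. None holds the ETS letters, and the TATA and CCAAT boxes are no more frequent in linked promoters than elsewhere. The sequences were copied from RefSeq (GRCm38.p6), 5′ to 3′ on the gene's strand. Each has 250 bases before the gene start and 50 after it, and capitals mark the motifs searched on both strands. Calr (calreticulin, a calcium-binding chaperone) is given from chr8:84846882-84847181 (minus strand), Rplp0 (a protein of the ribosomal stalk) from chr5:115559217-115559516 (plus), Kif11 (the mitotic kinesin Eg5) from chr19:37376132-37376431 (plus) and Med21 (a Mediator subunit) from chr6:146642329-146642628 (plus).
Calr: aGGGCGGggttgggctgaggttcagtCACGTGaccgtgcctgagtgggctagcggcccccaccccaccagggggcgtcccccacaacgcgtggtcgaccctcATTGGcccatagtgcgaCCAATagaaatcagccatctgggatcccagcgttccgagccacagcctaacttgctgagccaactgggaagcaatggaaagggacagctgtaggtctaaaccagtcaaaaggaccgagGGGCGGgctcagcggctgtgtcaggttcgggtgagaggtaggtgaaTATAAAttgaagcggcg
Rplp0: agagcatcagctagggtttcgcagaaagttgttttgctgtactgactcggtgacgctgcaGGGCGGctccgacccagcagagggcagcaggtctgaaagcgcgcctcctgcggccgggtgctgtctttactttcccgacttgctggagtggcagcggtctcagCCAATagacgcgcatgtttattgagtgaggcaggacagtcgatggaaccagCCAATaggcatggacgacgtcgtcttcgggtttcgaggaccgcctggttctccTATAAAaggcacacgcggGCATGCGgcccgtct
Kif11: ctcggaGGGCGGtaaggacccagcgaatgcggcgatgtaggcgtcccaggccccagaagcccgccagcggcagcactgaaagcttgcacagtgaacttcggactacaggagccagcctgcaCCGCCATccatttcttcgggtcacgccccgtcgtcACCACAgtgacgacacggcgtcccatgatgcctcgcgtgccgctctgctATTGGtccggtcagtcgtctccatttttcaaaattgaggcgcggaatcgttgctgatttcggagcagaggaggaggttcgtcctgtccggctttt
Med21: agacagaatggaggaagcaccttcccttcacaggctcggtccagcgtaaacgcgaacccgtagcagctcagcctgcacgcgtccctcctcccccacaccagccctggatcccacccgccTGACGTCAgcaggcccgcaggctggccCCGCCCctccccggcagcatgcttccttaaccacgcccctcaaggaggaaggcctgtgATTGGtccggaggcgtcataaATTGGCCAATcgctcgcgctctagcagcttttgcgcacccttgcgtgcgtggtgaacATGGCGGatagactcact

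The letters searched were CCGGAAG for ETS factors, GCATGCG for NRF1, GGGCGG for SP and KLF factors, CCAAT for the CCAAT box, TGACGTC for the cyclic AMP response element (CRE), ATGGCGG for YY1, CACGTG for the E-box, CTCGCGA for the element of that name, TATAAA for the TATA box, TGTGGT for RUNX, AGATAA for GATA factors and TGATTTA for HOX and PBX factors, with matches allowed to overlap. The Calr promoter held the SP and KLF letters, an E-box, the CCAAT box on either strand and a TATA box. The Rplp0 promoter held the SP and KLF letters, the CCAAT box, a TATA box and the NRF1 letters. The Kif11 promoter held the SP and KLF letters, with the CCAAT box, YY1 and RUNX letters on the minus strand. The Med21 promoter held a CRE that overlaps its own reverse complement, the SP and KLF letters on the minus strand, the YY1 letters, and CCAAT boxes of which a pair on opposite strands adjoin. The peaks of Calr, Rplp0 and Med21 lay downstream of the printed bases and share none of them. The Calr peak (950 bp) began 80 bp inside the gene, the Rplp0 peak (550 bp) 85 bp inside and the Med21 peak (250 bp) 73 bp inside, whereas the Kif11 peak (1150 bp) covered the start.

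The position of the peaks relative to gene starts could be measured for 1555 peaks with a single linked start of known strand. Their centres lay a median of 378.5 bp downstream of the start, inside the gene, with quartiles of 256.5 and 537.5 bp. Of the 1555 centres, 1461 (94.0%) were downstream. The upstream edge lay a median of 78 bp downstream of the start and the far edge 669 bp downstream, so most peaks did not cover the start: 401 did (25.8%), and 311 centres were within 250 bp of it. Strand came from the RefSeq promoter table, and peak edges lie on a 50 bp grid, so each distance is known to about that step.

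**Figure D1:**
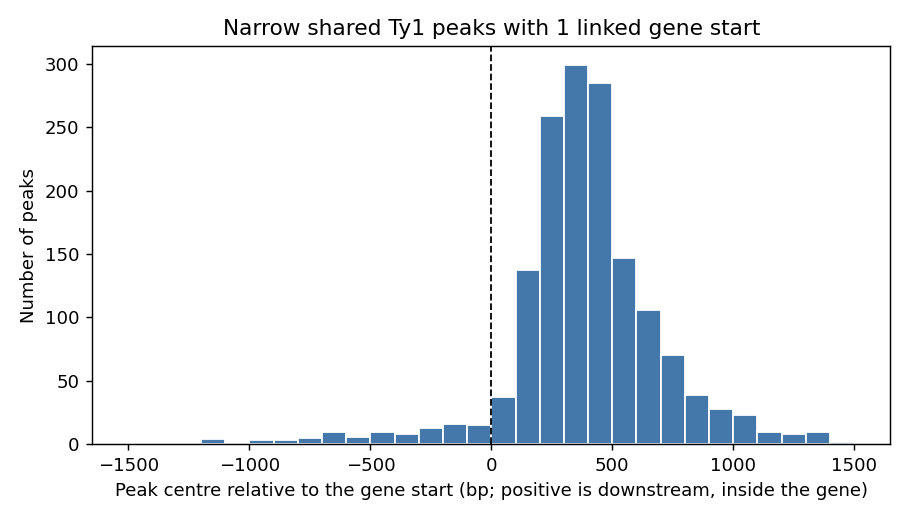
Histogram of the distance from peak centre to gene start for 1555 narrow shared Ty1 peaks with 1 linked start, in bins of 100 bp. Positive values on the x axis (bp) are downstream of the start, and the y axis counts peaks; the fullest bin, 300 to 400 bp downstream, holds 299 peaks.

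Among all 2496 peaks, 2053 (82.3%) had a gene start within 1 kb, 428 were linked only to genes whose strand was not used here, and 15 were linked only to a gene's far end. Of all the peaks, 843 covered a gene start or end. Peak width had a median of 600 bp (quartiles 400 and 850 bp), and 889 peaks were under 500 bp, 1184 from 500 to under 1000 bp and 423 from 1000 bp up. The overlapping replicate 2 peaks were wider, with a median of 700 bp. Replicate 2 covered 1272 peaks (51.0%) from edge to edge, 1979 overlapped by at least 50% of each peak, and in 289 cases the replicate 2 peak itself was 1500 bp or wider. The widest peaks inside the rule were 1450 bp, at Thap4 among others, and the narrowest shared peaks outside it were 1500 bp, at Pign, Ppp2r5a and Capzb. The farthest inside the distance rule lay 997 bp from Mid1, 990 bp from Hells and 985 bp from Cep120, and the nearest outside it lay 1021 bp from Mid1-ps1, 1027 bp from Tifa and 1034 bp from Clk3.

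A start-linked peak often had more than 1 gene start. Of the 2053 peaks with a start, 498 (24.3%) had at least 2, and 477 of these had a pair of starts on opposite strands. In 294 pairs the genes ran away from each other, with a median gap of 95.5 bp between starts, and in 183 the starts lay inside each other's gene, so that the gene heads overlapped. The pairs were 269 of 2 coding genes 207 of a coding gene with a long non-coding RNA, and 1 of other types. Among the 269 pairs of 2 coding genes, both were tested in 239, so the RNA of these partners at the same peak could be compared. Pairs with a long non-coding RNA were not compared. Of these pairs, 6 had both genes called in the same direction between MOZ-TIF2 and fresh cells and 1 in opposite directions, 10 and 3 between MOZ-TIF2 and differentiated cells, and 23 and 13 between differentiated and fresh cells. In most pairs at most 1 gene was called: 1 in 44 pairs and none in 188 between MOZ-TIF2 and fresh cells, 83 and 143 between MOZ-TIF2 and differentiated cells, and 102 and 101 between differentiated and fresh cells. Whether partners were called together more often than unrelated linked genes was not tested. Mettl6 (an RNA methyltransferase) and Eaf1 (an ELL-associated elongation factor), whose starts are 20 bp apart, were both higher in MOZ-TIF2 than fresh cells, by log2 differences of 2.32 and 2.22 (adjusted p = 0.0028 and 0.00219). Idh1 (cytosolic isocitrate dehydrogenase) and Pikfyve (a phosphoinositide kinase), 161 bp apart, likewise differed by 1.96 and 2.09 (adjusted p = 0.00454 and 0.0098). Jmjd6 and Mettl23, whose heads overlap by 252 bp, went opposite ways between MOZ-TIF2 and differentiated cells, by 1.57 and -1.22 (adjusted p = 0.00672 and 0.0262). These 3 pairs were chosen after their values were seen.

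Promoters of linked genes were rich in CpG and in several of the letters searched. Most peaks did not cover the start, so the bases searched (250 before it and 50 after) lay largely outside the peaks. The shares below thus describe the promoters of linked genes and not the peaks themselves. Over 2551 linked promoters the median GC share was 65.3%, against 52.7% over all 27025 promoters of the table, and the CpG count relative to that expected from base composition had a median of 0.889, against 0.389. The ETS letters stood in 23.1% of linked promoters and 9.14% of all promoters, the NRF1 letters in 8.51% and 3.65%, the SP and KLF letters in 74.4% and 35.9%, and the CRE in 7.76% and 3.30%. The YY1 letters stood in 13.5% and 4.21%, the E-box in 12.2% and 7.24% and the CTCGCGA element in 6.70% and 2.05%. Other letters were less frequent in linked promoters: the TATA box stood in 5.29% of linked and 14.2% of all promoters, the RUNX letters in 8.98% and 16.9%, the GATA letters in 3.53% and 11.4% and the HOX and PBX letters in 0.862% and 3.10%. All the letters that were more frequent contain a CpG, and none of the less frequent ones does. Whether these shares differ beyond base composition was not tested.

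Part of this contrast was shared by other promoters of genes with as many reads. Against tested genes in the same deciles of MOZ-TIF2 CPM, the ETS letters stood in 24.1% of linked promoters and 20.6% of the others, the YY1 letters in 13.5% and 8.71%, the CTCGCGA element in 6.93% and 4.14% and the GATA letters in 3.31% and 6.75%, and the mean CpG ratio was 0.877 against 0.718. The CCAAT box was less frequent near linked starts on this footing, in 35.0% of linked promoters and 42.5% of the others. Base composition was not matched, with a mean GC share of 64.7% in linked promoters and 60.1% in the others. Where the peak covered the gene start (954 promoters), the ETS letters stood in 24.8% and the NRF1 letters in 7.23%. Of 531 tested linked genes with the ETS letters, 11.1% were higher in MOZ-TIF2 than fresh cells, and of 1676 without it 17.5% were; the difference between these shares was not tested. A match of letters is a description and shows no binding.

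Linked genes had many reads in every group. Their median was 69.5 CPM in MOZ-TIF2 (67.3 and 69.1 in the 2 libraries), 64.1 CPM in differentiated and 57.3 CPM in fresh cells, against 16.9, 18.6 and 17.3 CPM over all 15224 tested genes. Over the 14717 tested genes that matched a RefSeq gene, 2766 (18.8%) had such a peak. In the lowest decile by MOZ-TIF2 CPM 0.543% of genes had one, in the fifth 11.4%, in the eighth 32.7% and in the highest 45.4%, with a rise at each step. CPM here is not divided by transcript length, so a decile orders genes by their reads and not by molecules.

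**Figure D2:**
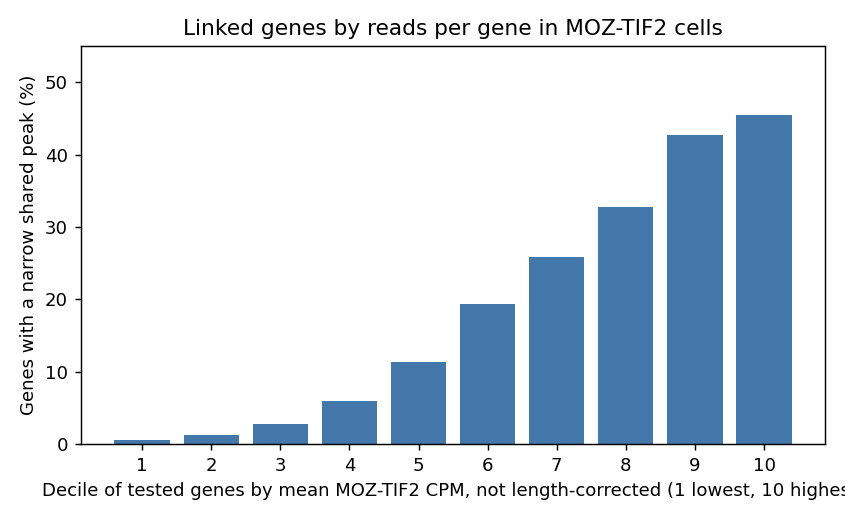
Share of tested genes with a narrow shared Ty1 peak (y axis, %) in each decile of genes ordered by mean MOZ-TIF2 CPM (x axis, 1 lowest, 10 highest, not length-corrected). The share goes up at every step, and reaches 45.4% in the highest decile.

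The X chromosome carried few of the peaks. It held 23 of the 2496, and 21 of its 425 tested coding genes (4.94%, 95% Wilson interval 3.25% to 7.44%) were linked, against 2728 of 12886 on autosomes (21.2%, 20.5% to 21.9%). Single autosomes ranged from 16.0% on chromosome 7 to 24.3% on chromosomes 8 and 12. Among genes in the upper 5 deciles of MOZ-TIF2 CPM the shares were 9.71% of 206 X-linked genes (6.37% to 14.5%) and 34.6% of 6983 autosomal genes (33.5% to 35.8%). These intervals cover counting error only and treat neighbouring genes as independent. A low share on X was not particular to these peaks. It was 0.921% of the narrow shared peaks at gene ends and 5 of 447 wide shared peaks (1.12%). Over all peaks it was 1.28% in replicate 1 and 1.45% in replicate 2. Narrow shared peaks away from gene ends were on X in 11 of 360 cases (3.06%). The Y chromosome held 1 peak.

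Among gene groups, translation was the most often marked. Of 49 cytosolic ribosomal protein genes, 35 (71.4%) had a narrow shared peak and 2 more had only a wide one. The share over all tested genes in the same deciles of MOZ-TIF2 CPM was 42.6%. Translation factors followed with 21 of 36 genes (58.3%, against 43.2% at the same deciles) and splicing factors with 20 of 40 (against 42.6%). Ribosome biogenesis genes had 13 of 30 (43.3%, against 38.5%), respiratory chain genes 16 of 40 (40.0%, against 36.9%), proteasome genes 11 of 31 (35.5%, against 43.4%), DNA replication genes 10 of 34 (29.4%, against 35.3%) and mitosis genes 6 of 25 (24.0%, against 42.2%). Mitochondrial ribosome genes had 9 of 40 (22.5%, against 27.9%) and repair genes 4 of 33 (12.1%, against 25.1%).

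None of the 13 tested primary granule genes on the list had such a peak. The share at the same deciles was 42.2%, and a count of 0 allows up to 23.1%. Of these genes, 3 (Mpo, Ctsg and Prtn3) had a wide shared peak. Prss57, a serine protease of granulocyte precursors that is not on the list, was linked to a peak nearer to Palm. None of the 21 listed replication-dependent histone genes that were tested had a narrow shared peak, where the share at their deciles was 3.09%. Their median was 0.610 CPM in MOZ-TIF2 cells, measured in poly(A) RNA. How far such deciles reflect transcription of these genes was not tested, so the count of 0 cannot be read against that share. The histone genes H3c15 and H2ac19, which are not on that list, share a narrow peak of 1450 bp. Of 57 myeloid and stem cell transcription factors, 13 (22.8%, against 28.2% at the same deciles) had a narrow peak, among them Cbfb, Cebpg, Gabpa, Jun, Junb and Max, and 19 others had only a wide one, among them Cebpa, Gfi1, Hoxa9, Meis1, Myb and Myc. Of the 8 lineage marker lists, 7 had no gene with a narrow peak. For erythroid, megakaryocyte, mast cell and T and NK cell genes the shares at the same deciles were 1.22%, 2.06%, 4.80% and 0.929%, and for stem and progenitor and monocyte genes 13.1% and 14.0%, so with lists of 6 to 10 genes these counts of 0 say little. For the 7 granulocyte progenitor genes, some of which are also granule genes, the share at the same deciles was 43.6%. The exception was the B cell list, where Cd79a was linked by its far end to a peak that lies at the start of the neighbouring gene Arhgef1.

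**Figure D3:**
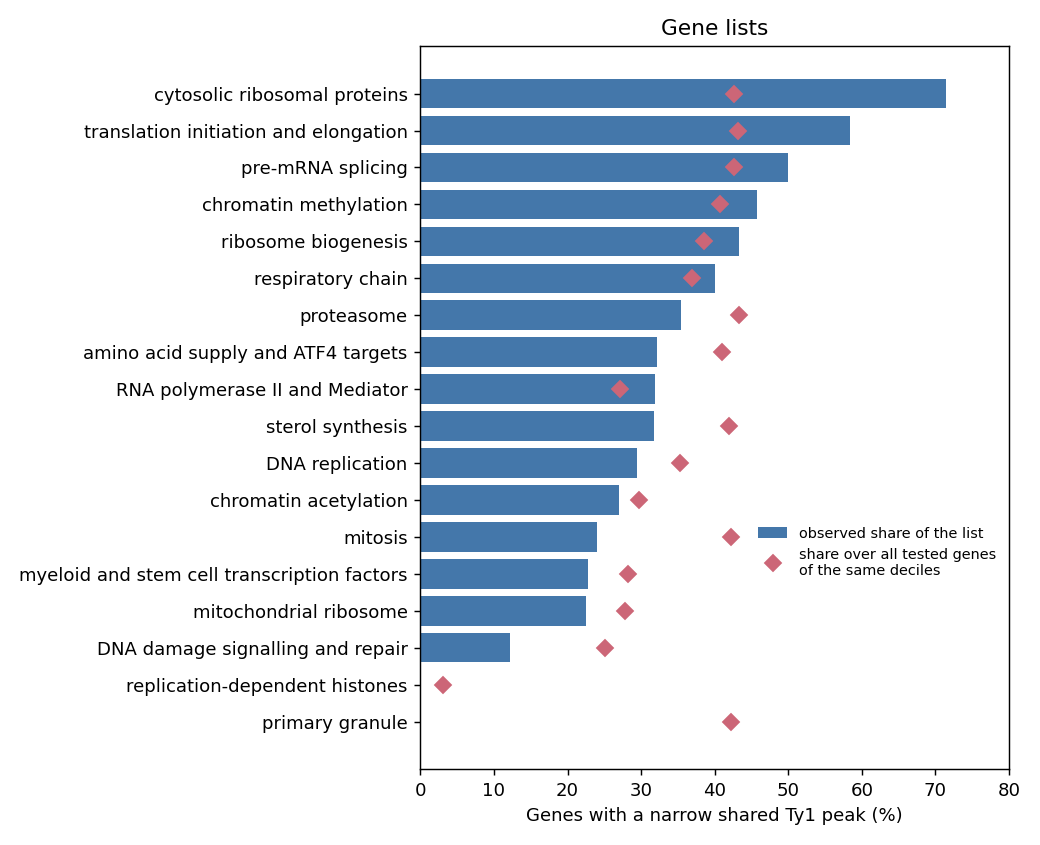
Share of each gene list with a narrow shared Ty1 peak (bars, x axis in %), beside the share over all tested genes in the same deciles of MOZ-TIF2 CPM (diamonds). Cytosolic ribosomal protein genes reach 71.4% against 42.6%, and primary granule genes have none against 42.2%.

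RNA of the linked genes was set against that of all tested genes in 3 comparisons, which share samples with each other. Between MOZ-TIF2 and fresh cells, 449 linked genes were higher (16.2%, where 11.3% of all tested genes were called higher) and 130 lower (4.70%, where 12.4% of all were called lower), at an adjusted p under 0.05 in edgeR. Their median log2 difference was 0.17, and that of all tested genes 0.00. Between MOZ-TIF2 and differentiated cells, 438 were higher (15.8%, all 13.3%) and 331 lower (12.0%, all 16.2%), with medians of 0.11 and 0.03. Between differentiated and fresh cells, 653 were higher (23.6%, all 21.0%) and 495 lower (17.9%, all 19.7%), with medians of 0.07 and -0.03. Of the 384 tested genes at wide shared peaks, 120 (31.3%) were higher in MOZ-TIF2 than fresh cells and 13 lower, and 103 (26.8%) were higher than in differentiated cells and 29 lower; the difference between narrow and wide peaks was not tested.

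Whether linked genes were called more often than other genes depended on how level was matched. With other genes taken from the same deciles of MOZ-TIF2 CPM, 18.7% of them were higher in MOZ-TIF2 than fresh cells, above the 16.2% of linked genes, and 4.63% were lower. With deciles of the mean over the 3 groups, 14.5% of the others were higher, below the linked genes, and 7.84% lower. The same turn was seen against differentiated cells, where 19.0% or 13.7% of the others were higher and 12.5% or 17.9% lower. Between differentiated and fresh cells, 25.2% or 27.5% of the others were higher, above the 23.6% of linked genes on either footing, and 19.5% or 17.96% lower. Counts also moved when a library was left out. Between differentiated and fresh cells they rose without either MOZ-TIF2 library. Most other counts fell. Between MOZ-TIF2 and fresh cells they were 18 higher and 9 lower without fresh replicate 1, 35 and 10 without fresh replicate 2, and 274 higher without MOZ-TIF2 replicate 2. Between MOZ-TIF2 and differentiated cells they were 196 and 175 without fresh replicate 1, 198 and 160 without fresh replicate 2, 226 and 178 without differentiated replicate 1, and 283 and 188 without differentiated replicate 2, and 217 were lower without MOZ-TIF2 replicate 1. Between differentiated and fresh cells they were 101 and 73 without fresh replicate 1, 188 and 82 without fresh replicate 2, and 379 and 203 without differentiated replicate 1. Without fresh replicate 1 the share of linked genes higher in differentiated cells (3.65%) was below that of all genes (4.58%). Calls over all genes dropped with them, to 82 higher and 292 lower between MOZ-TIF2 and fresh cells without fresh replicate 1. From replicate 1 peaks without the condition on ChIP replicate 2, 485 linked genes were higher and 143 lower in MOZ-TIF2 than in fresh cells, and 478 higher and 368 lower than in differentiated cells.

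**Figure D4:**
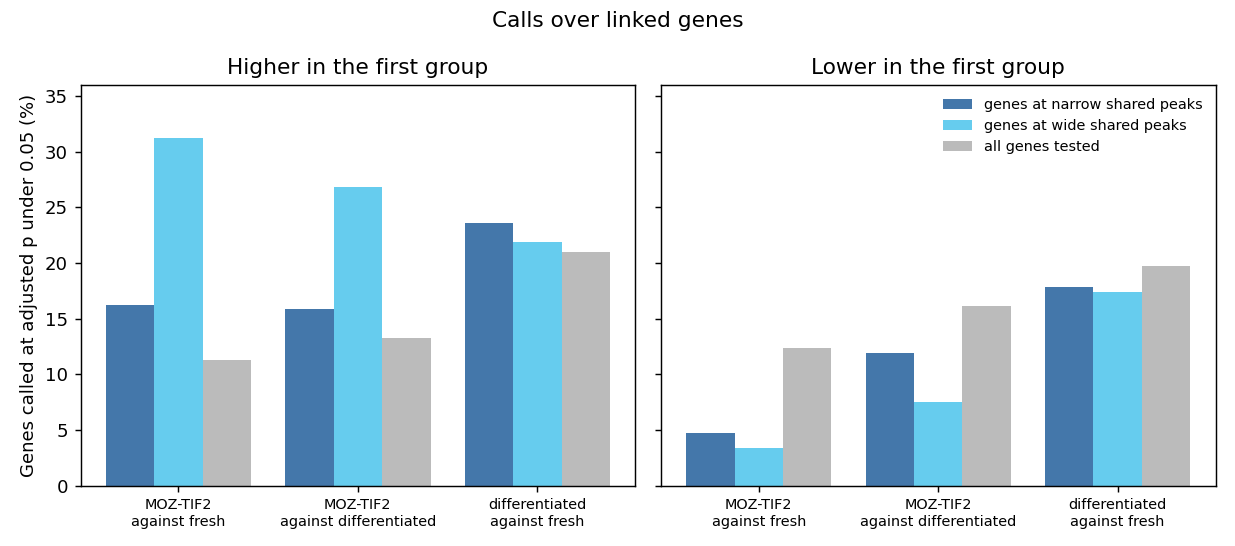
Share of tested genes called at an adjusted p under 0.05 (y axis, %) in 3 comparisons, higher (left) or lower (right) in the first group named. Genes at narrow shared peaks were called higher in MOZ-TIF2 than fresh cells in 16.2% of cases, genes at wide shared peaks in 31.3% and all tested genes in 11.3%.

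Most ribosome biogenesis genes at the peaks were lower in differentiated cells than in either other group. Of 13 linked ribosome biogenesis genes, 8 were higher in MOZ-TIF2 than in differentiated cells and 9 were lower in differentiated than in fresh cells. The whole list of 30 moved in the same directions, with 16 and 22 called. Of all tested genes, 13.3% and 19.7% were called in those directions. Against fresh cells edgeR called 0 of the 13 in MOZ-TIF2 cells (1 at an unadjusted p under 0.05, 1 by DESeq2). Nop56, a core protein of box C/D snoRNPs, had 272 and 193 CPM in MOZ-TIF2, 52.1 and 65.3 CPM in differentiated and 250 and 217 CPM in fresh cells. The differentiated libraries lay below all the others, and the log2 difference between MOZ-TIF2 and differentiated cells was 1.99 ± 0.27 (SE, adjusted p = 0.00405). Its peak (800 bp, chr2:130274152-130274951) covered the start. Rrp1b, a nucleolar protein, had 54.9 and 70.8 CPM in MOZ-TIF2, 11.4 and 14.3 CPM in differentiated and 51.6 and 56.0 CPM in fresh cells, with the same order of groups and a log2 difference of 2.29 ± 0.24 (adjusted p = 0.00166). The 8 calls became 2 without differentiated replicate 1, 5 without differentiated replicate 2 or MOZ-TIF2 replicate 1, and 4 without either fresh library; the 9 became 5 without differentiated replicate 1 and 2 without either fresh library.

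Ribosomal protein genes depended on the test. Of the 35 linked, 3 were higher in MOZ-TIF2 than in differentiated cells and 1 was lower in MOZ-TIF2 than in fresh cells. Another count, of those lower in differentiated than in fresh cells, was 12, where the median log2 difference was -0.62. Over all 49 listed genes these counts were 4, 2 and 16, and 1 gene went the other way in each comparison with fresh cells. Of all tested genes, 13.3%, 12.4% and 19.7% were called in the same comparisons and directions. The counts of 3 and 1 of the 35 were below those shares, and the 12 was above. Between MOZ-TIF2 and fresh cells the median was -0.53, 12 of the 35 had an unadjusted p under 0.05, DESeq2 called 18 lower, and a fit of only those groups called 5 lower. Rpl12, a protein of the large subunit, had 32.3 and 26.3 CPM in MOZ-TIF2, 8.60 and 7.85 CPM in differentiated and 25.3 and 22.8 CPM in fresh cells. Its differentiated libraries were the lowest (log2 difference 1.83 ± 0.24 between MOZ-TIF2 and differentiated cells, adjusted p = 0.00394). Rplp0, whose promoter is printed above, had 2335 and 2411 CPM in MOZ-TIF2, 1922 and 2436 CPM in differentiated and 3372 and 2226 CPM in fresh cells, and the groups overlapped. Genes of this family have many processed copies in the genome, so their counts are uncertain. The 3 calls became 1 without MOZ-TIF2 replicate 1, differentiated replicate 1 or either fresh library. The 12 calls became 2 without differentiated replicate 1 and 0 without either fresh library, and DESeq2 made 22.

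Some replication and mitosis genes at the peaks were lower in differentiated cells than in the other groups. Of 10 linked replication genes, 3 were higher in MOZ-TIF2 than in differentiated cells and 9 were lower in differentiated than in fresh cells. Of 6 linked mitosis genes, 3 and 3 were. Over all tested genes, 13.3% and 19.7% were called in these directions. The whole lists moved alike, with 8 and 29 of 34 replication genes and 8 and 8 of 25 mitosis genes. On the replication list 1 gene went the other way in each comparison. Cdc45, a subunit of the replicative helicase, had 81.5 and 80.01 CPM in MOZ-TIF2, 13.5 and 22.4 CPM in differentiated and 76.1 and 78.9 CPM in fresh cells. MOZ-TIF2 and fresh libraries lay close together and differentiated ones below them (2.17 ± 0.28 between MOZ-TIF2 and differentiated cells, adjusted p = 0.00352). The Cdc45 peak (250 bp) lies 480 bp upstream of the gene start and is also linked to Ufd1. Kif11 had 163 and 168 CPM in MOZ-TIF2, 56.8 and 94.5 CPM in differentiated and 115 and 164 CPM in fresh cells, a log2 difference of 1.13 ± 0.32 between MOZ-TIF2 and differentiated cells (adjusted p = 0.0412). That call on Kif11 was lost without either MOZ-TIF2 library, differentiated replicate 1 or either fresh library, with differences of 0.80 to 1.15. The 3 replication calls became 7 without differentiated replicate 2 and 1 without either fresh library, and the 9 became 6 without differentiated replicate 1, 2 without fresh replicate 1 and 1 without fresh replicate 2. The mitosis calls against differentiated cells became 6 without differentiated replicate 2 and 0 without any other library. Those between differentiated and fresh cells became 6 without differentiated replicate 2 and 0 without either fresh library. Of 20 linked splicing genes, 2 were higher in MOZ-TIF2 than in differentiated cells, a share below the 13.3% of all tested genes. In differentiated cells 11 of the 20 were lower than in fresh cells. Over all 40 splicing genes the counts were 3 and 19. The 2 became 5 without MOZ-TIF2 replicate 2 and 0 without MOZ-TIF2 replicate 1, differentiated replicate 1 or either fresh library, and the 11 became 3 without differentiated replicate 1 and 0 without either fresh library.

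Mediator and the initiation factors of RNA polymerase II had 15 linked genes of 47 (31.9%, against 27.2% at the same deciles of MOZ-TIF2 CPM). Of the 15, 3 were higher in MOZ-TIF2 than fresh cells and 4 higher than in differentiated cells. These shares are not far from those of all linked genes (16.2% and 15.8%). Med21 had 92.5 and 71.8 CPM in MOZ-TIF2, 14.2 and 15.6 CPM in differentiated and 39.5 and 42.8 CPM in fresh cells. The 3 groups did not overlap, with log2 differences of 1.00 ± 0.21 against fresh (adjusted p = 0.0221) and 2.46 ± 0.22 against differentiated cells (adjusted p = 0.000994). The call against fresh cells was lost without MOZ-TIF2 replicate 1 or either fresh library, at 0.81 to 1.06. The counts of 3 and 4 became 0 and 1 without either fresh library, and the 4 became 1 and 2 without differentiated replicates 1 and 2.

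Writers and erasers of histone marks included some of the fusion's own partners. Chromatin acetylation genes had 10 of 37 linked, with Ncoa2, Brpf1, Crebbp, Ncoa3, Kat2b and Kat5 among them, and 4 others, Ep300, Brd1, Brd2 and Ing5, had only a wide peak. Of the 10, 2 were higher in MOZ-TIF2 than fresh cells, and 1 was higher and 2 lower than in differentiated cells. The 2 calls against fresh cells became 1 without MOZ-TIF2 replicate 2, 0 without either fresh library and 3 without MOZ-TIF2 replicate 1 or either differentiated library, and with lists of this size they are near the 16.2% of all linked genes. The 1 higher call against differentiated cells became 0 without MOZ-TIF2 replicate 2, differentiated replicate 2 or either fresh library, and the 2 lower became 1 without MOZ-TIF2 replicate 1 or either fresh library and 0 without differentiated replicate 1. Ncoa2, the gene of TIF2, had 89.8 and 105 CPM in MOZ-TIF2, 153 and 113 CPM in differentiated and 34.4 and 47.8 CPM in fresh cells. Fresh libraries were the lowest, with a log2 difference of 1.25 ± 0.27 between MOZ-TIF2 and fresh cells (adjusted p = 0.0236). Whether reads of the fusion were counted as Ncoa2 was not tested. Brpf1, a scaffold subunit of the MOZ complex, had 73.2 and 91.0 CPM in MOZ-TIF2, 45.9 and 32.4 CPM in differentiated and 47.9 and 51.1 CPM in fresh cells. MOZ-TIF2 libraries were the highest, and the difference against differentiated cells was 1.07 ± 0.24 (adjusted p = 0.0217), while that against fresh cells was 0.73 ± 0.24 (adjusted p = 0.0757).

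Ncoa3, another coactivator of the TIF2 family, and Kat2b, the acetyltransferase PCAF, were highest in differentiated cells. Ncoa3 had 61.8 and 120 CPM in MOZ-TIF2, 237 and 203 CPM in differentiated and 26.3 and 30.3 CPM in fresh cells, a log2 difference of -1.28 ± 0.34 between MOZ-TIF2 and differentiated cells (adjusted p = 0.0353). Kat2b had 30.5 and 26.5 CPM in MOZ-TIF2, 77.7 and 58.7 CPM in differentiated and 19.99 and 23.6 CPM in fresh cells, a difference of -1.26 ± 0.23 on the same comparison (adjusted p = 0.0112). Methylation genes had 16 of 35 linked (45.7%, against 40.8% at the same deciles of MOZ-TIF2 CPM). Of the 16, 5 were higher in MOZ-TIF2 than in differentiated cells, where 13.3% of all tested genes were. Over the whole list 6 were higher and 1 lower. Dot1l, the H3K79 methyltransferase, had 98.6 and 97.4 CPM in MOZ-TIF2, 50.5 and 49.1 CPM in differentiated and 73.4 and 78.3 CPM in fresh cells. Its groups did not overlap (0.98 ± 0.17 between MOZ-TIF2 and differentiated cells, adjusted p = 0.0103). The calls on Ncoa2 and Brpf1 were each lost without MOZ-TIF2 replicate 2 or either fresh library (1.00 to 1.51 for Ncoa2 against fresh and 0.91 to 1.07 for Brpf1 against differentiated cells), that on Brpf1 also without differentiated replicate 2 (0.84), that on Ncoa3 without MOZ-TIF2 replicate 1 or any library of the other groups (-0.88 to -1.39) and that on Kat2b without differentiated replicate 1 (-1.05). The 5 methylation calls became 2 without either MOZ-TIF2 or either fresh library and 1 without either differentiated library.

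Sterol synthesis genes at the peaks were all called in the same direction against fresh cells. Of 22 list genes, 7 were linked (31.8%, against 41.9% at the same deciles of MOZ-TIF2 CPM), among them Mvd, Sqle, Cyp51, Sc5d and the regulator Srebf2. All 7 were higher in MOZ-TIF2 than fresh cells, with a median log2 difference of 3.07, and 3 were higher than in differentiated cells. All 7 were also higher in differentiated than in fresh cells, so both cultured groups exceeded the fresh one. The 15 list genes without such a peak behaved alike in count, since 21 of the 22 list genes were higher in MOZ-TIF2 than fresh cells. Mvd, mevalonate diphosphate decarboxylase, had 109 and 127 CPM in MOZ-TIF2, 24.4 and 22.5 CPM in differentiated and 8.70 and 7.57 CPM in fresh cells. No groups overlapped, and the log2 difference was 3.86 ± 0.22 against fresh (adjusted p = 0.000919) and 2.34 ± 0.20 against differentiated cells (adjusted p = 0.000904). Its peak lies 845 bp beyond its far end, nearer to the start of Cyba. Without either fresh library, the 7 calls of MOZ-TIF2 against fresh cells became 4 and the 7 of differentiated against fresh cells became 3.

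Amino acid supply under ATF4, a transcription factor of the integrated stress response, had 9 linked genes of 28 (32.1%, against 41.0% at the same deciles of MOZ-TIF2 CPM). Of these, 5 were higher and 1 lower in MOZ-TIF2 than in fresh cells, and 6 were higher than in differentiated cells. Over all 28 genes, 8 were higher and 2 lower than in fresh cells, and 19 were higher than in differentiated cells. Among all tested genes, 11.3% were called higher than in fresh and 13.3% higher than in differentiated cells. Atf4 itself had 426 and 509 CPM in MOZ-TIF2, 156 and 150 CPM in differentiated and 262 and 208 CPM in fresh cells. MOZ-TIF2 libraries were the highest, by 0.99 ± 0.23 against fresh (adjusted p = 0.0297) and 1.61 ± 0.23 against differentiated cells (adjusted p = 0.00545). Slc1a5, a neutral amino acid transporter, had 164 and 240 CPM in MOZ-TIF2, 61.8 and 64.3 CPM in differentiated and 84.1 and 83.0 CPM in fresh cells, by 1.27 ± 0.24 (adjusted p = 0.017) and 1.68 ± 0.24 (adjusted p = 0.00538). The 5 calls against fresh cells became 2 without MOZ-TIF2 replicate 2 and 0 without either fresh library, where Atf4 stood at 1.14 and 0.84 and Slc1a5 at 1.25 and 1.27. The 6 became 3 without differentiated replicate 1 and 4 without either fresh library.

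Large rises in MOZ-TIF2 cells were seen in Aff2, Spats2 and Pmaip1. Aff2, a gene of the AFF family of elongation factors on the X chromosome, had 60.5 and 25.6 CPM in MOZ-TIF2, 0 and 0.380 CPM in differentiated and 0.664 and 0.233 CPM in fresh cells, by 6.61 ± 1.09 against fresh (adjusted p = 0.0118). Spats2 had 21.4 and 21.5 CPM in MOZ-TIF2, 2.34 and 2.11 CPM in differentiated and 0.369 and 0.698 CPM in fresh cells, by 5.30 ± 0.47 against fresh (adjusted p = 0.00211). Pmaip1, the BH3-only protein Noxa, had 44.1 and 92.3 CPM in MOZ-TIF2, 53.2 and 11.1 CPM in differentiated and 2.88 and 2.27 CPM in fresh cells, and was above fresh cells by 4.73 ± 0.86 (adjusted p = 0.015). Without fresh replicate 1 or 2 the calls against fresh cells were lost for Aff2 (7.48 and 6.01) and Pmaip1 (4.87 and 4.57).

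Pmaip1 and Spats2 were also called higher in differentiated than in fresh cells, by 3.64 and 2.03 (adjusted p = 0.0174 and 0.0144), calls that were lost without either fresh library (3.80 and 3.48 for Pmaip1, 1.66 and 2.58 for Spats2). Plppr3, a membrane protein of the lipid phosphate phosphatase family, had 168 and 177 CPM in MOZ-TIF2, 0.143 and 1.00 CPM in differentiated and 42.2 and 39.6 CPM in fresh cells, so it was low in differentiated cells alone (8.14 ± 0.71 between MOZ-TIF2 and differentiated cells, adjusted p = 0.000951). Rasgrp2, an exchange factor for Rap1, had 87.3 and 90.5 CPM in MOZ-TIF2, 0.717 and 0.864 CPM in differentiated and 137 and 119 CPM in fresh cells. Between differentiated and fresh cells it fell by 7.32 on the log2 scale (SE 0.26, adjusted p = 0.000375). Tcp11l1 had 44.8 and 52.7 CPM in MOZ-TIF2, 207 and 149 CPM in differentiated and 1.99 and 2.68 CPM in fresh cells, and was higher in both cultured groups than in fresh cells (4.37 ± 0.30 for MOZ-TIF2, adjusted p = 0.00116). Glt1d1 (24.1 and 8.58 CPM in MOZ-TIF2, 3 counts in differentiated cells) and Prss57 (a serine protease of granulocyte precursors; 70.5 and 65.6 CPM in MOZ-TIF2, 0 and 0.761 CPM in differentiated cells) were also among the largest rises against differentiated cells, but their peaks lie at Slc15a4 and Palm as well, and for Prss57 the neighbour is nearer. The counting ratio of MOZ-TIF2 over differentiated cells was 275 for Glt1d1, with a 95% interval of 94.0 to 1338. This interval covers counting error only and not the spread between libraries.

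Falls of MOZ-TIF2 against fresh cells were ranked among called genes with at least 10 CPM in fresh cells and no overlap between groups. Genes with Gm, Rik or clone names were left out. The largest of these falls were in Cd79a, Oasl1, Jun, Hmgn1 and Dusp2. Jun, a subunit of the factor AP-1, had 11.6 and 21.9 CPM in MOZ-TIF2, 170 and 77.4 CPM in differentiated and 749 and 392 CPM in fresh cells. No groups overlapped, and the log2 difference against fresh cells was -5.09 ± 0.62 (adjusted p = 0.00521). Dusp2, a phosphatase of MAP kinases, had 4.70 and 4.81 CPM in MOZ-TIF2, 0.860 and 0.173 CPM in differentiated and 62.0 and 46.0 CPM in fresh cells, by -3.50 ± 0.58 against fresh (adjusted p = 0.0116). Oasl1, an interferon-induced gene, had 0 and 0.0292 CPM (1 count in all) in MOZ-TIF2, 4.39 and 1.87 CPM in differentiated and 16.1 and 12.8 CPM in fresh cells. Its counting ratio of fresh over MOZ-TIF2 was 1010, with an interval of 180 to 39990 that covers counting error only. The Oasl1 peak lies 492 bp upstream of the gene start and is also linked to Gm13822. Cd79a had 3 counts in all in MOZ-TIF2, 0 and 0.0691 CPM in differentiated and 161 and 131 CPM in fresh cells, and moves with the B cell markers given above. Hmgn1, a nucleosome-binding protein, had 1.97 and 22.5 CPM in MOZ-TIF2, 11.9 and 16.1 CPM in differentiated and 210 and 198 CPM in fresh cells. Its MOZ-TIF2 libraries differ widely, and the call against fresh cells (-4.06 ± 1.03, adjusted p = 0.0371) was lost without either differentiated or either fresh library, at -4.06 to -4.10. The Dusp2 call was lost without fresh replicate 1 or 2, at -3.30 and -3.70.

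Against differentiated cells the 5 largest falls among genes with at least 10 CPM in differentiated cells were in Map4k4, Sema4d, Il4ra, Asph and Ier3, all highest in differentiated cells. Il4ra, the interleukin 4 receptor alpha chain, had 63.1 and 59.0 CPM in MOZ-TIF2, 1534 and 1470 CPM in differentiated and 31.9 and 29.6 CPM in fresh cells. The log2 difference was -4.62 ± 0.25 against differentiated cells (adjusted p = 0.000313) and 0.99 ± 0.22 against fresh cells (adjusted p = 0.0257), the second of which was lost without MOZ-TIF2 replicate 1 or either fresh library (0.94 to 1.02). Map4k4, a kinase of the JNK pathway, had 5.63 and 8.43 CPM in MOZ-TIF2, 216 and 180 CPM in differentiated and 53.9 and 54.9 CPM in fresh cells (-4.82 ± 0.29 against differentiated cells, adjusted p = 0.000363). Sema4d, a semaphorin, had 23.1 and 31.0 CPM in MOZ-TIF2, 844 and 650 CPM in differentiated and 61.2 and 75.4 CPM in fresh cells (-4.79 ± 0.31 against differentiated cells, adjusted p = 0.000452). Asph and Ier3 differed in the same direction, by -4.43 and -4.20. Tgfbr1, a receptor of TGF-beta, was among the largest rises of differentiated over fresh cells, with 880 and 1047 CPM in differentiated and 15.0 and 22.2 CPM in fresh cells. The mast cell markers given above differ between the same groups.

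**Figure D5:**
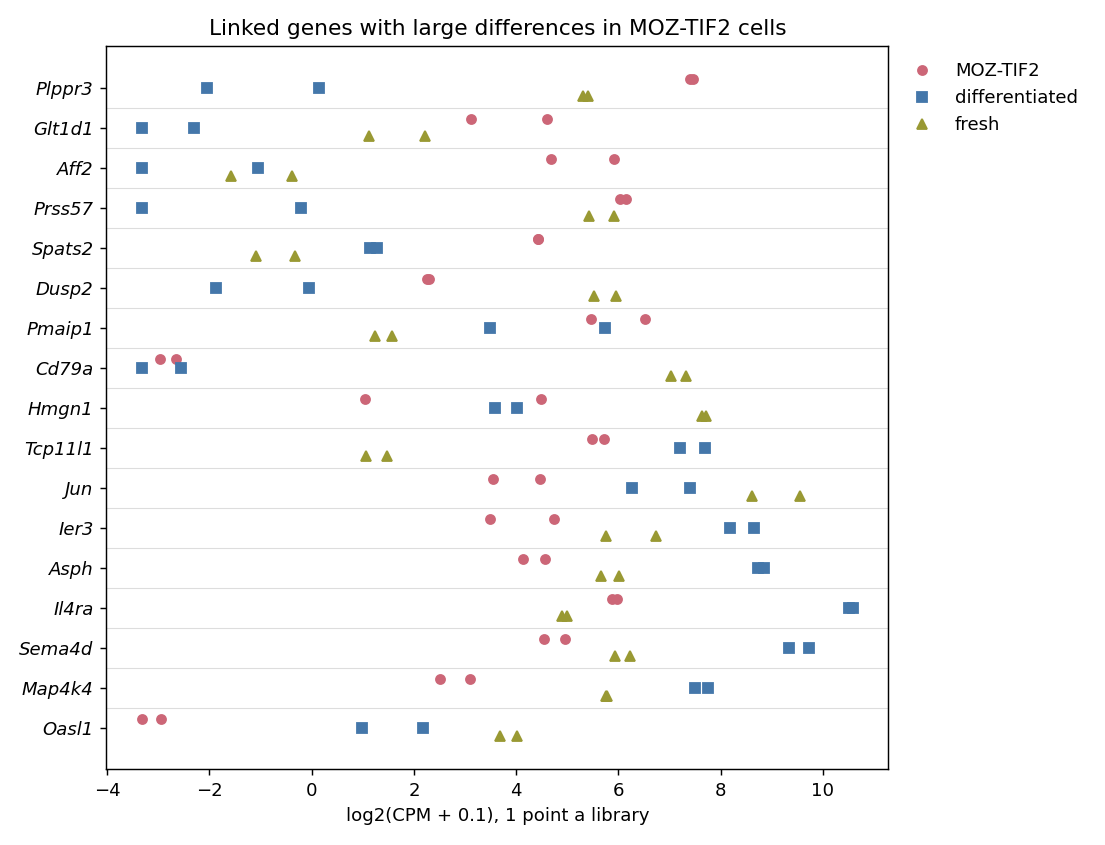
Level of linked genes with large called differences in MOZ-TIF2 cells, as log2(CPM + 0.1) on the x axis, 1 point a library, for MOZ-TIF2 (circles), differentiated (squares) and fresh cells (triangles). Genes run from the largest rise against differentiated cells at the top to the largest fall at the bottom. Plppr3 is at 168 and 177 CPM in MOZ-TIF2, at or under 1.00 CPM in differentiated and at 42.2 and 39.6 CPM in fresh cells.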

How the data were processed

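The peaks are intervals without scores, called per sample by the authors as deposited on GRCm38. The peak caller is not given in the sources used here, and the submitters' processing notes name Bowtie2 and Salmon 0.13.0 without their roles. The bulk table holds the authors' estimated counts for each gene, deposited without normalization. RNA libraries were poly(A) and strand-specific, per the labels' protocols.

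Genes came from the RefSeq table of GRCm38.p6 (49943 genes), matched by symbol or older symbol, and strand from its promoter table. Peak starts may be off by 1 bp. Estimated counts were rounded and fitted in R 4.3.3 with edgeR 4.0.16 (filterByExpr, TMM, quasi-likelihood F test, two-sided, all 6 libraries in 1 fit, Benjamini-Hochberg over the 15224 tested genes), tested on simulated data. DESeq2 1.42.0 was an alternative. CPM values are TMM-scaled; the planned CPM per coding length was replaced by CPM without length. Figures and counts were made in Python 3.11.15. The groups have 2 samples each and may be technical replicates, so p-values measure only the spread between these samples. The counting ratios pool the libraries of a group, and their exact intervals (95%) cover counting error only. A count of 0 genes allows up to 3 of the list.

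The peaks, gene lists and tests were chosen with earlier results of these data known. Genes were named by a rule: in each comparison the top 5 called genes up and the top 5 down by log2 difference, with a mean of 10 CPM or more in the higher group and no overlap between groups, then the 5 with the highest MOZ-TIF2 CPM, for each pathway list the 2 genes called in a MOZ-TIF2 comparison with the smallest p and the one with the highest CPM, and a fixed set of fusion partners and myeloid factors. Not all of these are described, and some items are not reported here. Other files of the series were not used here.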

Additional observations from a re-analysis of the deposited data

How the results depend on the processing

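The number of peaks and genes depended on the width rule: from 500 to under 1500 bp there were 1607 peaks and 2208 genes, and then 77 genes were lower in MOZ-TIF2 than in fresh cells, 217 lower in MOZ-TIF2 than in differentiated cells, and 429 higher and 317 lower in differentiated than in fresh cells. DESeq2 made 304 lower calls between MOZ-TIF2 and fresh cells. A fit of only the groups compared gave 266 higher and 200 lower calls between MOZ-TIF2 and differentiated cells. Leaving out each library or ChIP replicate 2 in turn moved the counts to 18 to 485 higher and 9 to 143 lower between MOZ-TIF2 and fresh cells, 196 to 478 and 160 to 368 between MOZ-TIF2 and differentiated cells, and 101 to 726 and 73 to 568 between differentiated and fresh cells; a group left with 1 library is assumed to vary like the others. The median level was 67.3 to 69.1 CPM without 1 MOZ-TIF2 library. Where the peak covers the start, the ETS letters stood in 24.8% and the NRF1 letters in 7.23% of promoters. With the replicate number as a block, 246 genes were higher and 60 lower between MOZ-TIF2 and fresh cells. Same-numbered libraries did not deviate together (correlations of -0.0759, -0.0513 and -0.00819 over 15224 genes). With 2 libraries a group, this cannot settle whether they share a preparation. The median log2 difference of linked genes kept its sign in every comparison and refit of the RNA data. The share of linked genes called did not always stay on the same side of the share over all genes, as given above. Some named genes, such as Calr against differentiated cells (-0.44 to 1.22), changed sign when 1 library was left out. The cause of these shifts was not tested. The deciles by the mean of the groups, and gene counts from either ChIP list alone, were added after the data were seen. CPM per coding length was not run. The 2 libraries a group limit which differences can be called.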
